A study of Mus musculus with 8 samples.

Results

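The genes described here encode the contractile apparatus and cytoskeleton of smooth muscle, and their mRNA was measured in whole esophagi of mice that lack monoacylglycerol lipase (MGL, the enzyme that hydrolyzes the endocannabinoid 2-arachidonoylglycerol) and of wild-type (WT) mice. They were chosen by gene symbol, namely Myh11, Acta2, Actg2, Tagln, Cnn1, Smtn, Lmod1, Mylk, Synpo2 and Myocd, and all 10 were found among the 32849 symbols of the count table. All 10 also passed the filter on low counts and were thus among the 14864 genes tested. The study sequenced poly(A)-selected RNA of frozen esophagus in 4 libraries of MGL KO and 4 of WT mice that received no treatment, and asked how the genotypes differ at baseline. MGL was deleted globally, and the WT mice were littermates bred in the same facility. The methods give male and female mice of 8 to 12 weeks for the experiments in general, but the labels give neither sex, age nor strain for a library. The Y-linked genes Ddx3y and Eif2s3y were expressed in all 8 libraries, at between 68.8 and 111 normalized CPM (CPM, a gene's share of the counts of its library after scaling by TMM factors). Nothing in the labels states how many animals gave a library, so the p-values measure the spread between these libraries.

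Smooth muscle contracts when calcium activates the kinase encoded by Mylk, which phosphorylates the light chain of the smooth muscle myosin whose heavy chain is Myh11. The myosin pulls on thin filaments of the smooth muscle actins Acta2, typical of vessels, and Actg2, typical of visceral muscle. Calponin (Cnn1), smoothelin (Smtn), transgelin (Tagln) and leiomodin (Lmod1) bind or assemble these filaments, synaptopodin 2 (Synpo2) is an actin-bundling protein also present in the Z-discs of striated muscle, and myocardin (Myocd) is the coactivator that drives the program together with serum response factor (SRF). In the mouse, the outer muscle coat of the esophagus is mostly skeletal muscle, so that smooth muscle is found chiefly in the muscularis mucosae, in vessels and toward the stomach. Because whole tissue was sequenced, fewer smooth muscle cells and less RNA per cell cannot be told apart.

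SRF binds the CArG box, an A/T core between a pair of C and a pair of G. Stretches of 3 promoters are shown because they held a match, and Acta2 is the only member of the set among them. The promoter table, from RefSeq on GRCm38.p6, covers 250 bases before to 50 bases after a gene start, and held 6 of the 10 genes: Acta2, Cnn1, Smtn, Lmod1, Mylk and Synpo2. Myh11, Actg2, Tagln and Myocd are named only. Capitals mark CArG boxes, including those with a single G or C in the core. The stretches are Acta2 (chr19:34255378-34255477, reverse strand), Myl9, the regulatory light chain gene and no member of the set (chr2:156775283-156775394, forward strand), and Srf itself (chr17:46556195-46556264, reverse strand).
Acta2: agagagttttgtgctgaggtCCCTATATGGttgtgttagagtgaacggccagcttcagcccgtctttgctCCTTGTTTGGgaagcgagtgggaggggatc
Myl9: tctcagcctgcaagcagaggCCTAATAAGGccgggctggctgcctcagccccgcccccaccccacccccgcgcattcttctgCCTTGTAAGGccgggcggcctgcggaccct
Srf: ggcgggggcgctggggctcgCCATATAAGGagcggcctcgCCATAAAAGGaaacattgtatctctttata

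Both elements of Acta2, whose first bases lie 84 and 34 bases before the start, have a G or C in the core, whereas both of Srf are free of it. Cnn1, Smtn, Lmod1, Mylk and Synpo2 had no match in this window. Tpm2 and Des, which are outside the set, were searched too and had none. Either strand was covered by the search, since the element reads the same way on both. Of all 32851 promoters in the table, 1.63% held a CArG box with an unbroken core and 9.98% a box with at most 1 G or C in it. A match of letters is a description and not a bound site.

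Total counts ranged from 13479069 to 17090152 per library, and a gene with no count could still stand at up to 3 counts, or between 0.167 and 0.271 normalized CPM depending on the library (counting error only). Mgll, the targeted gene, was at 13.7 ± 1.54 normalized CPM (SD, n = 4) in MGL KO and 81.2 ± 9.97 (SD, n = 4) in WT esophagi, so the libraries followed their labels. MGL KO replicate 4 stood apart from the other libraries: a list of 12 airway epithelial genes summed to 8244 normalized CPM there and to between 9.76 and 67.3 elsewhere, and its most abundant genes were Bpifa1 (2568 normalized CPM in this library and at most 12.5 elsewhere) and Scgb1a1 (2222 and at most 18.9). Squamous epithelial genes, which define the esophageal lining, were expressed in every library, with Krt4 between 546 and 5152 and Krt13 between 1464 and 7973 normalized CPM. The 14 skeletal muscle genes summed to between 61026 and 130367 normalized CPM, with Myh8 between 19190 and 32902.

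No smooth muscle gene passed the test of a difference between the genotypes. By the quasi-likelihood test of edgeR, the source of every adjusted p given here, 0 of the 10 had an adjusted p under 0.05, against 0.0471% of all genes tested (7 of 14864). At an unadjusted p under 0.05 the count was also 0 of 10, against 8.65% of all genes (4.29% counting only genes lower in MGL KO), and in 0 of the 10 were the ranges of the genotypes separate, beside 6.02% of all genes. The exact test of edgeR (filtered genes or all genes with a count), DESeq2 and limma-voom with quality weights each called 0 of the 10 as well. Fitted log2 fold changes (MGL KO minus WT) were above zero for 7 genes and below zero for 3, with a median of 0.08, beside 0.02 over all genes tested. This tally turned to 4 above and 6 below zero when MGL KO replicate 3, WT replicate 1 or WT replicate 2 was left out (medians -0.046, -0.072 and -0.079) and with Y-linked expression as a covariate (median -0.054). The 95% intervals of these changes bound what the data allow, and ran on the log2 scale from -0.32 to 0.59 for Acta2, from -0.84 to 0.62 for Myh11 and from -0.10 to 0.67 for Synpo2. A missed threshold does not show that the levels were equal.

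**Figure D1:**
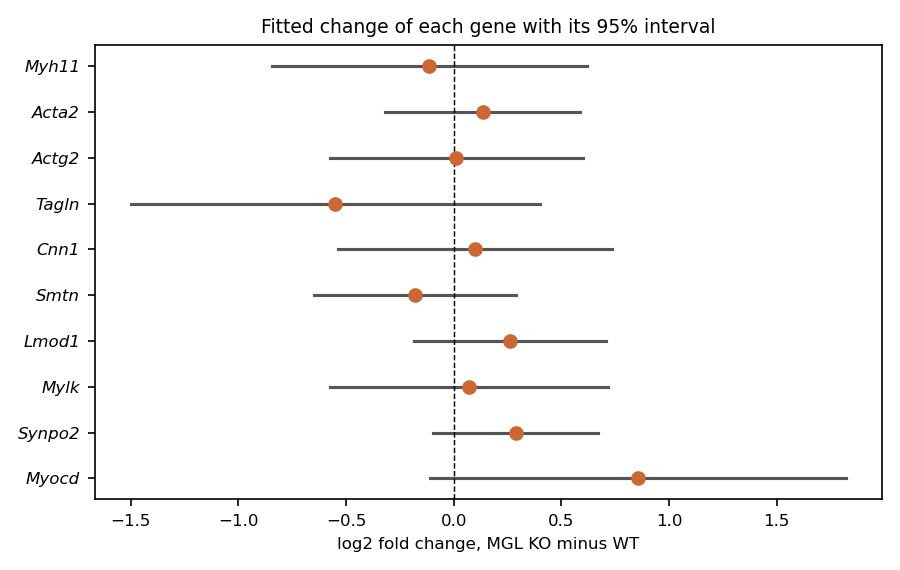
Log2 fold change of each smooth muscle gene (x axis, MGL KO minus WT, dot) with its 95% interval from edgeR's quasi-likelihood fit (line). All 10 intervals cover zero, from the lowest estimate at -0.55 for Tagln to the highest at 0.86 for Myocd.

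Acta2 was at 485, 466, 772 and 756 normalized CPM in WT replicates 1 to 4, and at 659, 649, 796 and 618 in MGL KO replicates 1 to 4. WT replicates 1 and 2 lay below all other libraries, whereas WT replicates 3 and 4 were exceeded by MGL KO replicate 3 alone. On the log2 scale, Acta2 differed by 0.13 ± 0.20 (SE, adjusted p = 0.849) from WT to MGL KO, and by 0.020 without WT replicate 2. Acta2 lies on the reverse strand of chromosome 19, at 34217737 to 34232990 in GRCm39, the build of all gene positions below. Actg2, the visceral isoform, was at 97.3, 92.1, 171 and 183 normalized CPM in WT and at 127, 115, 183 and 124 in MGL KO esophagi. Its MGL KO values lay inside the WT range, and the log2 difference was 0.01 ± 0.26 (SE, adjusted p = 0.990), with the sign turned without MGL KO replicate 3 (-0.16), WT replicate 1 (-0.12) or WT replicate 2 (-0.14). The gene sits on the reverse strand of chromosome 6, at 83489887 to 83513551, at a distance of 5.14 Mb to the deleted Mgll.

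The ratio of Actg2 to Acta2 was compared within each library, since it does not depend on library scaling. It is a ratio of genes and not a measure of visceral against vascular muscle. The log2 ratio of Actg2 to Acta2 was -2.33 ± 0.16 (SD, n = 4) in MGL KO and -2.22 ± 0.14 (SD, n = 4) in WT esophagi. The difference of -0.11 was smaller than the spread within either group (p = 0.343 by an exact two-sided permutation of the libraries, which can reach 0.0286 at the lowest).

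Myh11 was at 378, 321, 639 and 878 normalized CPM in WT and at 495, 397, 690 and 465 in MGL KO esophagi. The highest WT library had 2.73 times the level of the lowest, a wider range than the 1.74 times among MGL KO libraries. Its log2 difference was -0.11 ± 0.32 (SE, adjusted p = 0.925). Without WT replicate 4, which had the highest Myh11, the difference was 0.20, so that its direction rested on this library. Mylk, the gene of myosin light chain kinase, was at 116, 126, 244 and 269 normalized CPM in WT and at 172, 186, 245 and 189 in MGL KO esophagi. As in Myh11, all MGL KO libraries lay between the lower and the upper pair of WT libraries or, for replicate 3, within the upper pair. The log2 difference of Mylk was 0.07 ± 0.28 (SE, adjusted p = 0.951), and its sign turned without MGL KO replicate 3 (-0.049), WT replicate 1 (-0.11) or WT replicate 2 (-0.083). Both genes lie on chromosome 16, Myh11 at 14012399 to 14109236 on the reverse strand and Mylk at 34565580 to 34822790 on the forward strand.

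**Figure D2:**
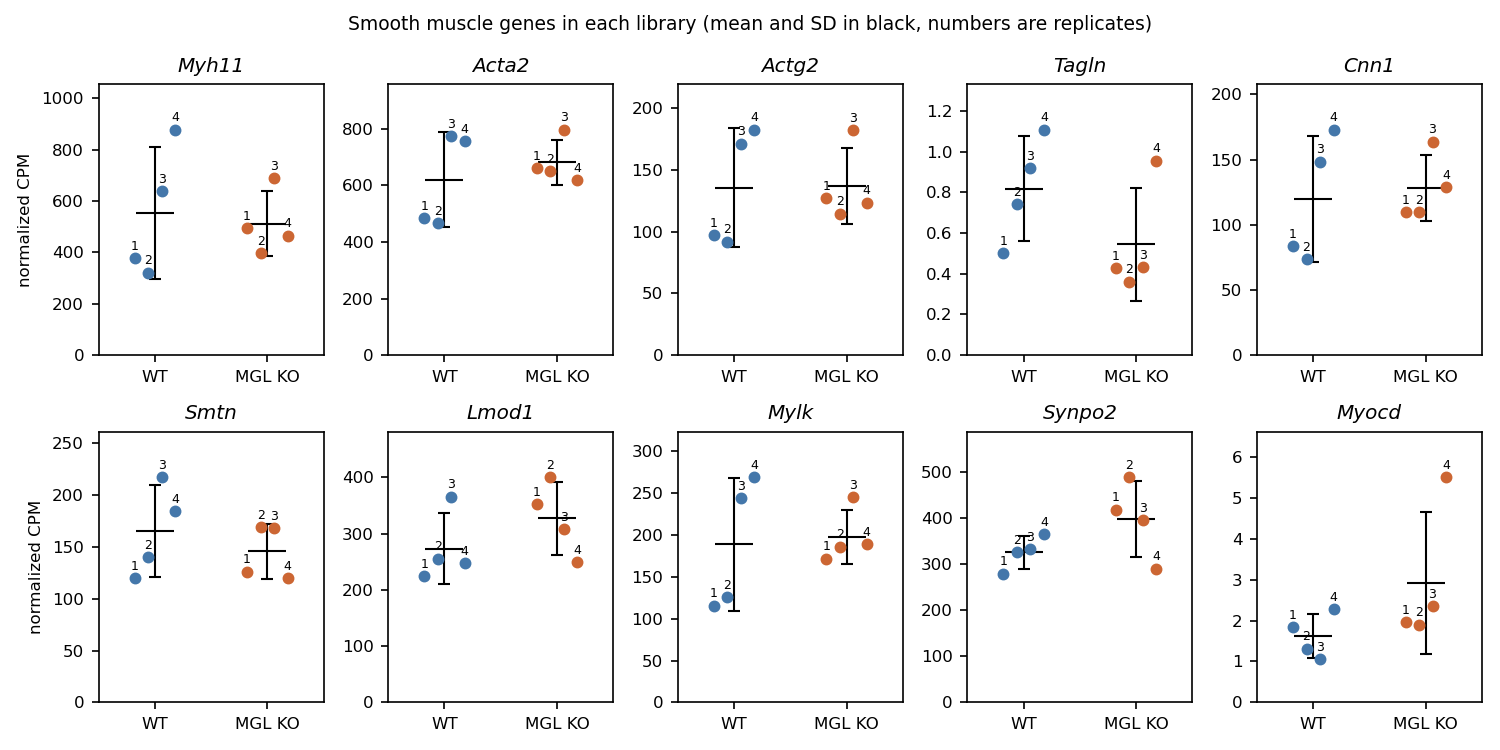
Normalized CPM (y axis, from zero, a separate scale for each gene) of the 10 smooth muscle genes in WT (blue) and MGL KO (orange) libraries, numbered by replicate, with the mean and SD in black. In no gene do the groups separate, and WT replicates 1 and 2 lie below WT replicates 3 and 4 in genes such as Acta2, Actg2, Cnn1 and Mylk.

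Among the thin filament regulators, Cnn1 was at 83.7, 73.7, 148 and 173 normalized CPM in WT and at 110, 110, 164 and 129 in MGL KO esophagi, again with the WT values spread further than the MGL KO values. Smtn was at 119, 140, 217 and 184 normalized CPM in WT and at 126, 169, 168 and 120 in MGL KO esophagi, so that the MGL KO range fell inside the WT range. The fitted log2 differences were 0.10 ± 0.28 for Cnn1 (SE, adjusted p = 0.925) and -0.18 ± 0.21 for Smtn (SE, adjusted p = 0.802). Without WT replicate 3, the value of Smtn was -0.013. The sign of Cnn1 turned without MGL KO replicate 3 (-0.042), WT replicate 1 (-0.039) or WT replicate 2 (-0.076), and its value was 0.33 without WT replicate 4. Cnn1 lies on the forward strand of chromosome 9 (22010512 to 22020926) and Smtn on the reverse strand of chromosome 11 (3467520 to 3490612). Of the exon bases of Cnn1, 35.1% are shared with Elof1 on the opposite strand, and Elof1 itself was not examined here.

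Lmod1 and Synpo2 followed another order of libraries. Lmod1, a nucleator of actin filaments, was at 225, 255, 366 and 248 normalized CPM in WT and at 352, 401, 308 and 249 in MGL KO esophagi. Synpo2 was at 280, 327, 333 and 366 normalized CPM in WT and at 419, 490, 395 and 291 in MGL KO esophagi. Both were highest in MGL KO replicate 2, the library with the largest sum of skeletal muscle genes (130367 normalized CPM) and the smallest sum of squamous epithelial genes (5014 normalized CPM). Myh11, in contrast, was lowest of its group in this library. Their log2 differences were 0.26 ± 0.20 for Lmod1 (SE, adjusted p = 0.714) and 0.29 ± 0.17 for Synpo2 (SE, adjusted p = 0.658), the highest positive values after Myocd. Without MGL KO replicate 2 they were 0.15 and 0.18, and without MGL KO replicate 4 they were 0.37 and 0.41. Without WT replicate 3, Lmod1 was at 0.44. With the mean level of the skeletal muscle genes as a covariate they were 0.38 (adjusted p = 0.215) and 0.37 (adjusted p = 0.185). Lmod1 lies on the forward strand of chromosome 1 (135252509 to 135295907) and Synpo2 on the reverse strand of chromosome 3 (122870168 to 123029798).

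**Figure D3:**
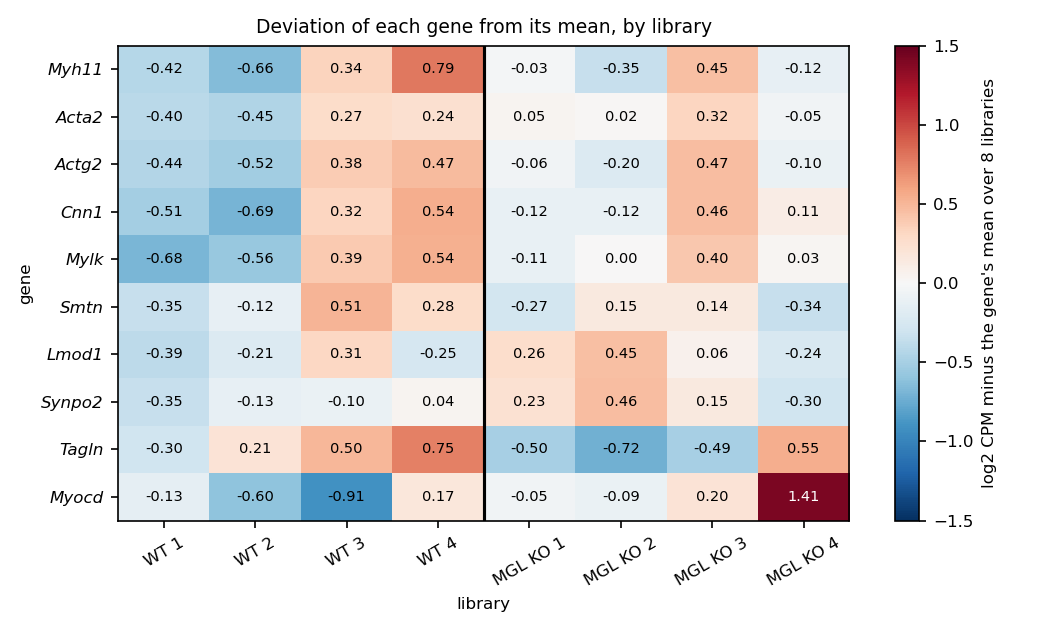
Log2 CPM of each smooth muscle gene (rows) minus its mean over the 8 libraries (columns, WT left, MGL KO right), with the value in each cell. Myh11, Acta2, Actg2, Cnn1 and Mylk are low in WT replicates 1 and 2 and high in WT replicates 3 and 4, Lmod1 and Synpo2 are highest in MGL KO replicate 2, and Myocd is highest in MGL KO replicate 4 at 1.41.

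Levels varied between libraries of the same genotype. In Myh11, Acta2, Actg2, Cnn1 and Mylk, WT replicates 1 and 2 lay below every MGL KO library. These genes were grouped after their values were seen, so this order is a description and not a test. Myocd had the same order, whereas Smtn, Lmod1, Synpo2 and Tagln did not. The share of all genes with this order was not counted. Summed over all 10 genes, expression was 1785 and 1803 normalized CPM in WT replicates 1 and 2, and 2893 and 3061 in WT replicates 3 and 4. In MGL KO libraries it was between 2191 and 2951. WT replicate 4 had the highest level of 5 of the 10 genes, and WT replicates 1 and 2 the lowest of 4 each. The SD of log2 CPM within groups ranged from 0.25 for Synpo2 to 0.60 for Myocd. Of the 10 genes, 8 had a mean of at least 10 normalized CPM, and the SD of all 8 was above 0.22, the median of the 9855 tested genes with such a mean. Tagln and Myocd had too few counts for this comparison. As values that moved beside this spread, the skeletal muscle sum was 77929, 93044, 115450 and 95783 normalized CPM in WT replicates 1 to 4, and the squamous epithelial sum 10778, 18833, 6011 and 11333, and their part in it was not tested. Of the genes of the glandular stomach, which borders the lower esophagus, Atp4b had 0 counts in every library and Gkn1 reached 4.34 normalized CPM in WT replicate 3, its highest. The sum of that list was at most 11.4 normalized CPM except in MGL KO replicate 4.

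Per kilobase of annotated exon, Acta2 had the highest level of the set, at 201 CPM per kb averaged over the 8 libraries. Lmod1 (73.5), Myh11 (70.1) and Actg2 (61.6 CPM per kb) followed, and their ranges over libraries overlapped, as did those of Cnn1 (45.3), Smtn (34.9) and Synpo2 (27.7 CPM per kb). Mylk, at 17.2 CPM per kb, overlapped Synpo2 in its range, whereas Acta2 did not overlap any other gene of the set. Tagln, at 0.33, and Myocd, at 0.32 CPM per kb, lay far below these and overlapped each other. In windows of 100 bases, the principal transcripts of Acta2 and Actg2 shared 0% of their sequence exactly with transcripts of any other gene, including the skeletal actin Acta1, whose level was 22637 normalized CPM.

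Tagln was nearly absent from the counts. Transgelin is known as an abundant protein of differentiated smooth muscle, yet Tagln had 9, 13, 14 and 17 counts in WT replicates 1 to 4 and 7, 4, 7 and 17 counts in MGL KO replicates 1 to 4. This equals 0.50 to 1.11 normalized CPM in WT and 0.36 to 0.96 in MGL KO esophagi, beside at least 466 for Acta2 in the same libraries. Among the MGL KO libraries, 3 lay below all WT libraries, and MGL KO replicate 4 lay above WT replicates 1 to 3. The log2 difference was -0.55 ± 0.42 (SE, adjusted p = 0.717), and -0.97 with an adjusted p of 0.527 when MGL KO replicate 4 was left out.

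In GENCODE release M39 on GRCm39, Tagln lies on the reverse strand of chromosome 9 from 45840909 to 45847404. The long non-coding RNA Gm48529, on the opposite strand from 45841410 to 45851010, covers 92.3% of this span and 60.7% of the exon bases of Tagln. With Pcsk7, whose end overlaps the end of Tagln, 66.7% of the exon bases (1364 of 2044) are shared, the highest share in the set, followed by 35.1% in Cnn1. The counting tool and its use of strand are not given in the sources used here, and the reads of Gm48529 were not analysed. Tnnc2, a fast skeletal troponin gene named after its values were seen, has a similar share (68.7%, with Ube2c on the opposite strand) and was at 1.10 to 3.52 normalized CPM, whereas Tnni2 of the same complex, named for this comparison, was at 1822 to 6771. Whether shared exon bases lowered the counts of Tagln was not tested, and its level is given here as counted.

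**Figure D4:**
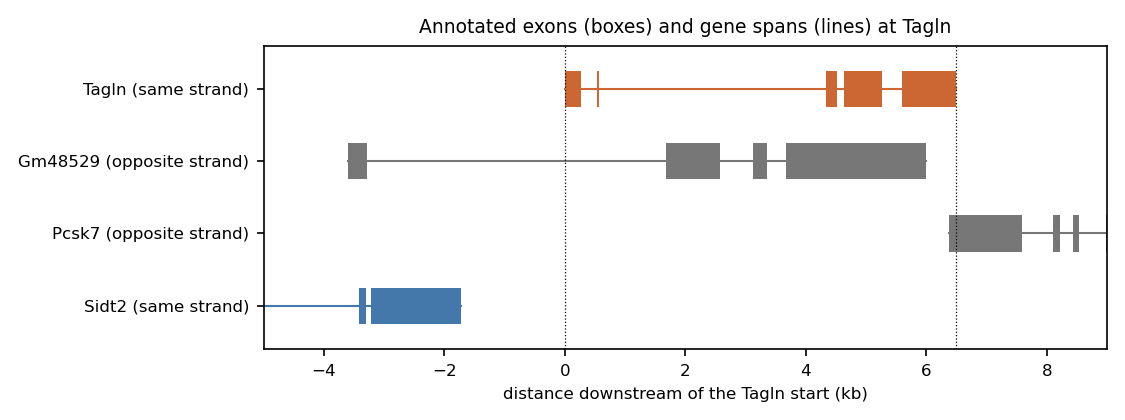
Annotated exons (boxes) and gene spans (lines) around Tagln, by distance downstream of its start in kb (x axis), with the dotted lines at its start and end. Gm48529 and Pcsk7, on the opposite strand, together leave 680 of the 2044 exon bases of Tagln to Tagln alone.

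Myocd, the transcriptional coactivator, had the fitted difference farthest from zero, and a single library stood out. It was at 1.84, 1.31, 1.05 and 2.28 normalized CPM in WT, and at 1.96, 1.90, 2.34 and 5.51 in MGL KO esophagi. MGL KO replicate 4 thus stood above all other libraries, and the other MGL KO libraries overlapped WT replicate 4. The log2 difference was 0.86 ± 0.43 (SE, adjusted p = 0.623), and 0.35 (adjusted p = 0.696) without this library. Myocd lies on the reverse strand of chromosome 11, at 65067387 to 65160828. Myocd is also expressed in heart muscle, and genes of heart muscle, a list made after these values were seen, were high in the same library. Myh6, a cardiac myosin heavy chain, was at 1170 normalized CPM in MGL KO replicate 4 and at most 9.06 elsewhere. Myl7, the atrial light chain, was at 187 against at most 3.42, and Nkx2-5, a cardiac transcription factor, at 2.42 against 0 counts in every other library. All 9 genes of this list summed to 2191 normalized CPM in MGL KO replicate 4 and to between 54.6 and 124 in the others. Airway epithelial genes were high there as well, as given above, and the part of either tissue in the Myocd value was not tested. Of the other smooth muscle genes, Myh11, Actg2, Cnn1 and Mylk were within the range of the other MGL KO libraries in this library, whereas Acta2, Lmod1, Synpo2 and Smtn were below it. Tagln was above that range, at 0.96 normalized CPM against at most 0.43, from 17 counts.

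**Figure D5:**
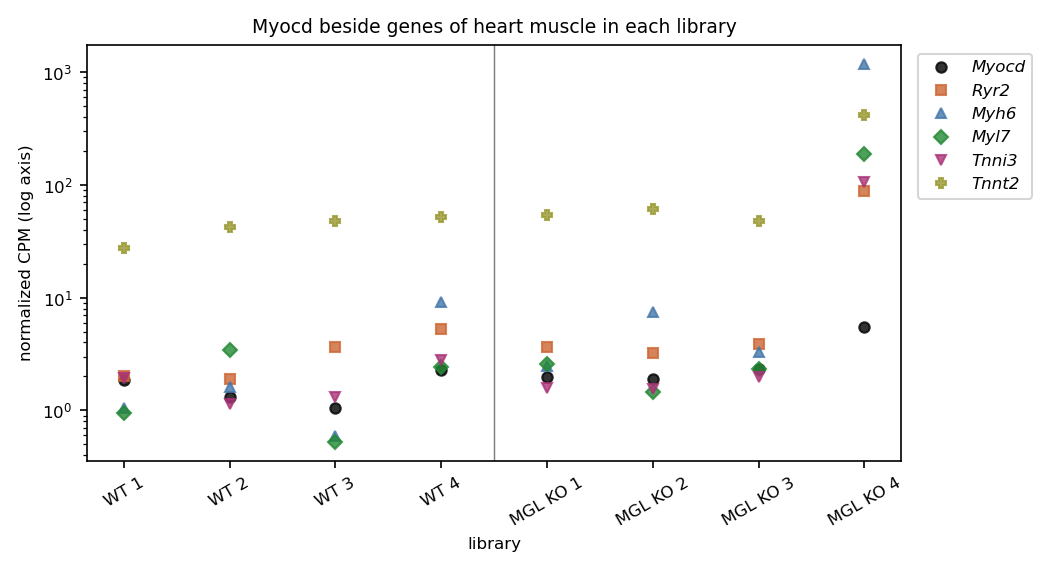
Normalized CPM (y axis, log scale) of Myocd and of the heart muscle genes Ryr2, Myh6, Myl7, Tnni3 and Tnnt2 in each library (x axis). All 6 genes are highest in MGL KO replicate 4, where Myocd is at 5.51 and Myh6 at 1170 normalized CPM.

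Other genes of the contractile apparatus, cytoskeleton and tone were examined as lists, many of whose members striated muscle also expresses. None of these lists had a gene with an adjusted p under 0.05, also not by the exact test, DESeq2 or limma-voom. Of 13 further genes of the contractile apparatus, 10 had a log2 fold change above zero, with a median of 0.17 over the list. Of these 13, 1 had an unadjusted p under 0.05, Mylk4, a myosin light chain kinase family gene of striated muscle named after its value was seen, at -0.67 (adjusted p = 0.478), beside 8.65% of all genes tested. Tpm2 and Tpm1, the tropomyosins that striated muscle shares, had the highest levels and, like Lmod1, were highest in MGL KO replicate 2, at 13243 and 11465 normalized CPM. Myl9 was at 157, 139, 285 and 293 normalized CPM in WT and at 185, 210, 252 and 202 in MGL KO esophagi, so that WT replicates 1 and 2 were again below every MGL KO library. Of 20 genes of intermediate filaments and dense plaques, 14 were above zero, with a median of 0.09, and 2 had an unadjusted p under 0.05, Csrp1 (0.35) and Filip1l (0.39), also named after their values were seen, again beside 8.65% of all genes. Des, the desmin gene, which smooth and striated muscle share, was at 7522 ± 3074 normalized CPM (SD, n = 4) in MGL KO and 6180 ± 1335 (SD, n = 4) in WT esophagi (log2 fold change 0.28, adjusted p = 0.784), and Pdlim3 differed by 0.09 on the log2 scale. Like the skeletal actin gene Acta1, both were highest in MGL KO replicate 2 and lowest in MGL KO replicate 4. Of 16 tested genes that set tone, 10 were above zero, with a median of 0.16, among them Rock2 (0.16), while Rhoa differed by 0.00. Of these 16, 2 had an unadjusted p under 0.05, Ryr2 (2.96) and Pln (1.46), beside 8.65% of all genes tested. Both are calcium handling genes that are also on the heart muscle list, and both were highest in MGL KO replicate 4. Ryr2 was at 87.9 normalized CPM in that library and at most 5.28 elsewhere, and Pln at 11.5 and at most 7.85.

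Of the regulators that act with myocardin, SRF is its DNA-binding partner. Srf was at 111, 125, 125 and 133 normalized CPM in WT and at 143, 162, 158 and 134 in MGL KO esophagi, every MGL KO library lying above every WT library. Its log2 difference of 0.27 ± 0.10 (SE) had an unadjusted p of 0.0283 from the edgeR fit, but an adjusted p of 0.542. Mrtfa and Mrtfb, the myocardin-related coactivators, named after their values were seen, had the opposite sign. Mrtfa was at 45.9, 46.7, 42.4 and 54.8 normalized CPM in WT and at 30.9, 36.1, 41.1 and 32.1 in MGL KO esophagi, with a log2 difference of -0.44 ± 0.12 (SE, adjusted p = 0.478). Mrtfb differed by -0.21 ± 0.09 (SE, adjusted p = 0.550). Like Srf, these genes had groups that did not overlap, as was seen in 6.02% of all genes tested. Klf4, a factor that represses the contractile program, was at 165 ± 50.6 normalized CPM (SD, n = 4) in MGL KO and 129 ± 33.1 (SD, n = 4) in WT esophagi (adjusted p = 0.688). Of the 13 genes of this list, 3 (Srf, Mrtfa and Mrtfb) had an unadjusted p under 0.05, beside 8.65% of all genes tested. In all, 5 had a log2 fold change above zero and 8 below, with a median of -0.05.

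Vascular mural cells and interstitial cells of Cajal, which lie next to smooth muscle, showed no called gene either. Rgs5, a pericyte gene, was at 172 ± 34.6 normalized CPM (SD, n = 4) in MGL KO and 222 ± 15.9 (SD, n = 4) in WT esophagi, a log2 difference of -0.37 (adjusted p = 0.550), and 7 of the 9 mural cell genes were below zero. At an unadjusted p under 0.05 stood Rgs5 and, above zero, Cspg4, which was named after its value was seen, beside 8.65% of all genes tested. Abcc9 differed by -0.14. Of the genes of interstitial cells of Cajal, Ano1 differed by -0.25 on the log2 scale and Cd34, which other stromal cells also express, by -0.52 (adjusted p = 0.531).

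The genes whose levels followed the set most closely were Rusc2, Ckb, Klhl23, Kctd6 and Myl9. They had the smallest SD, from 0.12 to 0.15, of the log2 ratio to the mean of the 10 genes over the 8 libraries, among 9847 genes with at least 10 normalized CPM outside the set. Of these, Myl9 and the creatine kinase gene Ckb stood at 219 ± 82.0 and 67.0 ± 17.5 normalized CPM (SD, n = 4) in WT and at 212 ± 28.6 and 73.1 ± 11.3 (SD, n = 4) in MGL KO esophagi. Within the set, the log2 ratio to the mean of the other members varied least for Acta2 (SD 0.11) and Actg2 (0.18). It varied most for Myocd (0.74) and Tagln (0.59), which had few counts. Ranked among the 9847 genes by the SD to the mean of all 10, Acta2, Actg2, Cnn1, Mylk, Smtn and Myh11 stood between 1 and 591. Synpo2 stood at 3338, Lmod1 at 4767, Tagln at 8501 and Myocd at 9205, so these members did not follow the mean closely.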

How the data were processed

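The authors checked reads with FastQC 0.11.9, trimmed adapters with Cutadapt, aligned to GRCm39 with STAR 2.7.10b and deposited raw counts per gene symbol for 8 libraries. The annotation, counting tool and strand setting are not given in the sources used here. Members and gene lists were chosen with earlier results of these data known.

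Counts were analysed with edgeR 4.0.16, limma 3.58.1 and DESeq2 1.42.0 in R 4.3.3. Genes were kept by filterByExpr (minimum count 10) and scaled by TMM. The quasi-likelihood test was used with Benjamini-Hochberg adjustment over 14864 genes and a threshold of 0.05, and log2 CPM had a prior count of 1. Standard errors are the log2 fold change over the square root of F. The exact test, which the study's methods name, was an alternative, as were other tests, scalings, filters, covariates and leaving out each library. The tests were tested on simulated data. Replicates of a group differed by more than sampling noise (chi-square per degree of freedom at least 14.5). Exon lengths and overlaps came from GENCODE M39.

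The rule for named genes took the 10 members, Mgll, in each list any gene with an adjusted p under 0.05 (there was none) and the 2 most abundant genes, and the 5 genes closest to the set. Other genes were named after their values were seen.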

Additional observations from a re-analysis of the deposited data

Results flagged for a closer look

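Of 50 groups of 4 values, each the libraries of a genotype, 4 held a library far from the others, and it was MGL KO replicate 4 in all 4. The criterion marks about 2.5 of 50 groups by chance, but gene lists and library were singled out with results of these data known, so the count is a description. Myocd was at 5.51 normalized CPM there, with 2.34 the next highest of the group, and Tagln at 0.96 normalized CPM against at most 0.43, from 17 counts. The sum of the airway epithelial genes was 8244 normalized CPM, with 67.3 the next highest. The sum of the glandular stomach genes was 138 normalized CPM against at most 5.12, and came from Tff2 (88.7) and Muc5ac (47.0), while Gkn1 and Atp4b had 0 counts in this library. The source of these values was not tested.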

How the results depend on the processing

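The number of smooth muscle genes called was 0 under every alternative run, including both exact tests, DESeq2 and the fits that left out a library. At an unadjusted p under 0.05, 2 of the 10 passed with skeletal muscle expression as a covariate (Lmod1 and Synpo2, beside 17.1% of all genes in that fit) and when MGL KO replicate 4 was left out (Tagln and Synpo2, beside 9.36%). A single gene passed with quality weights (Lmod1, beside 11.4%), without WT replicate 3 (Lmod1, beside 7.79%) and without MGL KO replicate 2 (Myocd, beside 9.31%). Over all genes, 7 differed. That count became 130 by DESeq2, 64 and 42 by the exact test (on filtered genes, or on every gene counted), 25 by limma-voom using quality weights, 23 after adjusting for skeletal muscle, and 3 after adjusting for Y-linked genes. It was 2 for robust fitting, for no low-count filter, and at an adjusted p under 0.01. Leaving out a library gave 2 to 5 genes (5 for WT replicate 4; 4 and 3 for MGL KO replicates 1 and 2; 2 for any other). The cause was not tested. Of the 7 genes, 42.9% were higher in MGL KO, against 83.3% of 6 with library size alone. A replicate block on the replicate numbers gave 2 genes and 0 smooth muscle genes. Deviations of same-numbered libraries correlated at -0.14, -0.28, -0.14 and 0.08. The labels do not state whether libraries of the same number share an origin, and these correlations cannot decide it.

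Acta2, Smtn, Lmod1, Synpo2 and Myocd kept the sign of their log2 difference in every alternative, as did Tagln wherever it was tested (it had too few counts for the minimum of 10 in every library). Myh11 changed sign with quality weights (0.14) and with the skeletal muscle covariate (0.0030), Actg2 with upper quartile factors (-0.0096), library size alone (-0.0074) and the Y-linked covariate (-0.097), and Cnn1 (-0.040) and Mylk (-0.068) with the latter. Leaving out a library gave -0.30 to 0.20 for Myh11, -0.16 to 0.19 for Actg2, -0.076 to 0.33 for Cnn1 and -0.11 to 0.29 for Mylk. For genes that kept their sign it gave 0.020 to 0.26 for Acta2, -0.31 to -0.013 for Smtn, 0.15 to 0.44 for Lmod1, 0.18 to 0.41 for Synpo2, -0.97 to -0.37 for Tagln and 0.35 to 1.06 for Myocd, and -0.18 to -0.05 for the log2 ratio of Actg2 to Acta2. The median of the 10 genes lay between -0.08 and 0.24 over all alternatives. Tagln had only 4 to 17 counts per library.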

Other observations

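Genes of fibroblasts and endothelium, the other stromal cells beside smooth muscle, held no gene with an adjusted p under 0.05. All 8 fibroblast genes had a log2 fold change below zero, with a median of -0.31 (Dcn, the decorin gene, at 451 ± 70.4 normalized CPM in MGL KO and 578 ± 51.7 in WT esophagi, SD, n = 4, log2 fold change -0.36, adjusted p = 0.550). Col3a1, a fibrillar collagen gene, differed by -0.17 and varied between 382 and 1185 normalized CPM within the MGL KO group alone. All 8 endothelial genes were also below zero, with a median of -0.30, Pecam1 at -0.12 and Cdh5 at -0.16. At an unadjusted p under 0.05 (edgeR), 2 of the 8 genes of each list were lower in MGL KO esophagi, Dcn and Lum among the fibroblast genes and Tek and Egfl7 among the endothelial genes, beside 4.29% of all genes tested that were lower at this threshold. Lum, Tek and Egfl7 were named after their values were seen. The exact test, DESeq2 and limma-voom called 0 genes of either list.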
